A study of Mus musculus with 16 samples.

Results

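Opposite-strand noncoding RNAs are long transcripts read from the DNA strand that does not encode the gene they are named after, so that Six3os1 denotes an RNA transcribed against the gene Six3. They were selected by their name and their level. An entry was a member if its RefSeq identifier started with NR_, the prefix for RNAs with no annotated protein, if its symbol ended in os or in os and a number, and if its mean normalized count over all libraries was above 1. Of 20633 entries, 2064 were NR_ entries, 137 of these carried such a symbol, and these made 136 different symbols, of which 100 had a mean above 1. The mean was therefore used to choose them, and the levels given here are a description.

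Nuclear RNA of mouse embryonic stem cells (ESCs) was sequenced in 16 libraries, 4 from each of 4 kinds of cell. PRC1-null cells were Ring1-/-;Rnf2 fl/fl ESCs after 72 h in 800 nM 4-hydroxytamoxifen, which induces the deletion of Rnf2. PRC2-null cells were untreated Ring1-/-;Rnf2 fl/fl;Eed-/- ESCs, a clone made with CRISPR/Cas9 and therefore also lacking Eed throughout culture, and PRC1/2-null cells were that clone after the same drug treatment. The untreated Ring1-/-;Rnf2 fl/fl ESCs served as wild type. All 4 groups therefore lacked Ring1, and the Eed-deleted groups come from a single clone at passages 30 to 40, against passages 25 to 35 for the parent line.

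The value analysed is a single number per gene, the deposited mean of normalized counts over all libraries. It carries no replicate spread, sequencing depth is not known from it, and it does not show in which of the 4 groups an RNA was expressed. In such bulk RNA, fewer cells expressing a gene and less of its RNA per cell cannot be told apart. No difference between the groups was computed, no test was run, and every comparison below sets an RNA against other genes. An RNA and its namesake are compared after division by transcript length, as mean normalized count per kb, and an undivided mean is named as such where it is given. Per kb, the 7 pluripotency markers with an entry lay between 698 (Klf4) and 1851 (Tdgf1). The 5 primitive endoderm markers lay between 75.5 (Foxa2) and 1398 (Gata4), the 8 fibroblast or feeder markers between 0.18 (Col3a1) and 140 (Vim), and the 4 trophoblast markers with an entry between 12.7 (Elf5) and 267 (Hand1). The ranges of the last 3 sets overlapped. The primitive endoderm range also overlapped that of the pluripotency markers, with Gata4 above Esrrb (1322) and below Zfp42 (1429).

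Polycomb repressive complexes PRC1 and PRC2 modify histones at CpG-rich promoters and keep developmental genes silent in ESCs. Ring1 and Rnf2 are the catalytic subunits of PRC1, and Eed is a core subunit of PRC2. Many developmental transcription factor genes are flanked by a noncoding RNA that runs in the opposite direction, often from the same CpG-rich stretch. Some of these RNAs have described roles, as for Dlx6os1 (Evf2) in forebrain interneurons, while for most of them none is known.

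The annotation matched the naming rule with few exceptions. RefSeq classes 95 of the 100 members as lncRNA and 2 as antisense RNA. Micos10 matched by spelling alone, since it encodes a subunit of a mitochondrial inner-membrane complex, and leaving it out gives 99 members. Crxos is also classed as protein coding, and Fbxl12os is classed as a transcribed pseudogene. A gene of the shared name was listed for 97 members, the exceptions being Micos10, Cdr1os and G6bos. These 97 members point to 96 different namesakes, because Pcsk2os1 and Pcsk2os2 share Pcsk2. In all 95 pairs with both levels and positions, the annotated transcripts lie on opposite strands.

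A few start regions are shown first as examples of high and low CpG content at RNAs that start near to and far from their namesake. Each holds 250 bases before and 50 bases after the annotated start, 5′ to 3′ on the strand of the RNA, from RefSeq on build GRCm38.p6 (mm10), with every CpG in capitals. They were chosen after their values were seen. The first 3 belong to RNAs that start within 1 kb of their namesake's start, and the others to RNAs that start farther away. The region of Ino80dos (chr1:63114221-63114520, plus strand) has 25 CpGs, that of Lhx1os (chr11:84525410-84525709, plus strand) has 33, and that of Hoxa11os (chr6:52244993-52245292, plus strand) has 41. Evx1os (chr6:52314783-52315082, minus strand) has 6 and Hnf4aos (chr2:163541672-163541971, minus strand) has 4.
Ino80dos: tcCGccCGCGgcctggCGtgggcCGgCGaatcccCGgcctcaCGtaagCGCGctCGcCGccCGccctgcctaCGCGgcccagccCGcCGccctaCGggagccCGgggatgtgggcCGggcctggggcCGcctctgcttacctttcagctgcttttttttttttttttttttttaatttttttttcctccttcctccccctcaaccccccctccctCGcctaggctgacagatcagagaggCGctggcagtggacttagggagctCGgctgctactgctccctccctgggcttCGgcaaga
Lhx1os: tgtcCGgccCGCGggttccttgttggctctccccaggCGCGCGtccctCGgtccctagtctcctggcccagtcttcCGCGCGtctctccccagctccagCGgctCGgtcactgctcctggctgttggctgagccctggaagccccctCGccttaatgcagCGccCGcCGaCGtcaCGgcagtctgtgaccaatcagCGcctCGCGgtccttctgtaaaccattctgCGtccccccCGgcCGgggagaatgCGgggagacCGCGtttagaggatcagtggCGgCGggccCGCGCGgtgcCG
Hoxa11os: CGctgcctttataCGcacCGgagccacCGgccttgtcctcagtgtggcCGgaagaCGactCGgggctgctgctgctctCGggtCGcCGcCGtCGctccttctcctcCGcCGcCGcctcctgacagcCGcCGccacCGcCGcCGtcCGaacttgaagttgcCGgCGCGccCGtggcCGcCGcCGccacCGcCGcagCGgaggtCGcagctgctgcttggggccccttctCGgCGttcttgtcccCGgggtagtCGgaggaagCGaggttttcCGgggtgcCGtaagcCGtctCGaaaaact
Evx1os: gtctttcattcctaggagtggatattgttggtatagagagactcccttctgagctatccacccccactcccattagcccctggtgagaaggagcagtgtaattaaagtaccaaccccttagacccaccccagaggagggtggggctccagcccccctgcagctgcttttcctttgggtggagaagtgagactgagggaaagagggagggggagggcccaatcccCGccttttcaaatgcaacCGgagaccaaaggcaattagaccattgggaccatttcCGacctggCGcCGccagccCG
Hnf4aos: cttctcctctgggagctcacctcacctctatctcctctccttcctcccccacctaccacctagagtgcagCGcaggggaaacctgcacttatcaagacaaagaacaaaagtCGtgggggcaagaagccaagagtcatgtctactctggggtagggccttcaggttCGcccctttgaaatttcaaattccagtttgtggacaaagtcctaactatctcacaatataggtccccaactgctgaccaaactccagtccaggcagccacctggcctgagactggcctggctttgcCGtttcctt
The capitals are dense in the first 3 sequences, while the Evx1os and Hnf4aos sequences hold few. Not every member follows this contrast. The region of Pla2g10os, which starts 607 nt from its namesake's start, has 3 CpGs, and that of Rab10os, 74178 nt away, has 39. Those of Six3os1 and Nkx2-2os, 2469 and 2321 nt away, have 20 and 17. The printed examples also differ in their namesakes. The start regions of Hnf4a and Evx1 themselves have 4 and 12 CpGs, against 31 for Lhx1 and 15 for Hoxa11.

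Most opposite-strand RNAs were scarce. Of the 100 members, 50 had a mean normalized count above 1 and up to 10, 38 lay above 10 and up to 100, and 12 were above 100. Their median mean was 9.86, or 6.73 per kb over the 98 members with a transcript length. The other NR_ entries above 1 had a median of 12.5 (8.65 per kb), and all entries above 1 had a median of 312 (119 per kb). Means above 1 were reached by 73.5% of the 136 opposite-strand symbols, 64.8% of the 1927 other NR_ entries and 89.5% of the NM_ entries, which encode proteins. Means above 100 were reached by 8.82% of the opposite-strand symbols and 13.8% of the other NR_ entries. These shares are descriptions and were not tested. Their transcripts measured 298 to 7928 nt with a median of 1380.5 nt, against a median of 3316 nt for their namesakes.

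The 36 symbols at 1 or less include 6 listed at 0, namely Fhad1os1, Nrg3os, Plxna4os1, Kcnmb4os1, Arhgap15os and Ctrcos. Their namesakes were not all silent: 24 of 36 had a mean above 100, and the median was 411. Just inside the limit lay Dnm3os (1.17), Tbc1d22bos (1.15) and Kcnd3os (1.05). Just outside were Asb17os and Cdrt4os1 (0.95 each) and Tmem132cos (0.78). Rbm46os was listed as a pair of NR_ entries, of which the higher (22.4) was used. Crxos also had NM_ entries, with means of 42.9 and 36.6, which the rule leaves out.

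Where 1 gene gave its name to several RNAs, these could differ widely. Dlx6os1 had 7.80 per kb, while Dlx6os2 had 0.053. Dlx6os2 lies within the span of Dlx6os1 on the same strand. How reads from that stretch were assigned is not given in the sources used here, so this contrast is uncertain. Ptgs2os, named after the prostaglandin synthase gene Ptgs2, had 2.34 per kb and Ptgs2os2 had 0.025. Kcnmb4os2 had 1.75 per kb and Kcnmb4os1 was listed at 0. Pcsk2os1 (1.58 per kb) and Pcsk2os2 (0.39 per kb) were closer. In each of the first 3 sets 1 RNA passed the limit and its partner did not.

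The highest level per kb belonged to Ino80dos (NR_045915, chr1:63114471-63158295, plus strand), with a mean of 1506 or 956 per kb. Its namesake Ino80d, a subunit of the INO80 chromatin remodeler, had a mean of 5913 but only 440 per kb, since its transcript is far longer. The log2 ratio of RNA to namesake per kb was therefore 1.12, whereas it was -1.97 without division by length. Both start sites lie 204 nt apart and point away from each other, and the CpG-rich region printed above is the start of this RNA. Micos10 had the highest undivided mean (1912, or 750 per kb).

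Rab26os (chr17:24528251-24528744, plus strand), the shortest member at 298 nt, had a mean of 196 or 657 per kb. Rab26, a small GTPase of secretory vesicles, had a mean of 26.2 or 16.6 per kb. The log2 ratio was 5.30 per kb, and Rab26os was also the higher of the pair without division by length (2.90) and per kb of gene span (6.15). It lies downstream of Rab26 without overlapping it.

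Brip1os (chr11:86201360-86304443, plus strand) had a mean of 1113 or 427 per kb. Brip1, a helicase of DNA repair, had 2596 or 375 per kb, so the pair was nearly level, with a log2 ratio of 0.19 that turned to -1.22 without division by length and -0.75 per kb of gene span. Their starts lie 190 nt apart in divergent orientation. Oip5os1 (chr2:119594296-119600746, plus strand), also known as Cyrano, a conserved RNA that directs the decay of a microRNA, had a mean of 577 or 418 per kb. Oip5, a centromere protein gene, had 214 or 198 per kb, which gives a log2 ratio of 1.08. Oip5os1 lies downstream of its namesake, so their exons do not overlap.

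The remaining members among the 10 highest per kb mostly stood below an abundant namesake. Epb41l4aos had 512 per kb against 1101 for Epb41l4a, a log2 ratio of -1.11. Rab10os had 393 per kb against 928 for the membrane-traffic GTPase gene Rab10 (log2 ratio -1.24), and Sp3os had 268 per kb against 959 for the zinc-finger transcription factor gene Sp3 (log2 ratio -1.84). Gata6os had 323 per kb against 695 for the endoderm factor Gata6 (log2 ratio -1.10). Otx2os1 had 347 per kb against 162 for the forebrain factor Otx2 (log2 ratio 1.10), the one pair in this paragraph with the RNA on top per kb of transcript. That order turned on other scales, with a log2 ratio of -0.10 without division by length, -3.62 per kb of gene span and -0.33 when all entries of Otx2 were summed. Apart from Gata6os and Otx2os1, none of the 10 is named after a gene on the developmental transcription factor list described below.

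Across the 95 pairs in which both levels were above 0 and had a length (Hmgb4 was listed at 0 and Stk35os1 had no length), the RNA was below its namesake per kb in 79 and above it in 16 (16.8%). The median log2 ratio was -3.15, with a range of -9.78 to 5.69. It was -1.50 over the 48 pairs with both means above 10, and -4.38 without division by length. Per kb of transcript, 42 RNAs had a log2 ratio below -4. Levels of the partners went together only weakly. Spearman's rho across pairs was 0.18 (n = 95), given as a description because all pairs come from the same libraries and are not independent. It was 0.07 over the 20 pairs on the developmental transcription factor list and 0.29 over the 75 others. The choice of length mattered: 8 RNAs were above their namesake per kb of transcript, without division and per kb of gene span, 74 were below on all 3 scales, and 13 changed sides. The 8 are Oip5os1, Rab26os, Foxd2os, Dlx4os, Hoxa11os, Lhx1os, Crxos and Il1bos. Hoxa11os and Lhx1os were nearly level with their namesakes per kb of gene span, both at a log2 ratio of 0.04. For Crxos and Il1bos the namesake lay below the mean of 1 that the RNA had to pass.

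**Figure D1:**
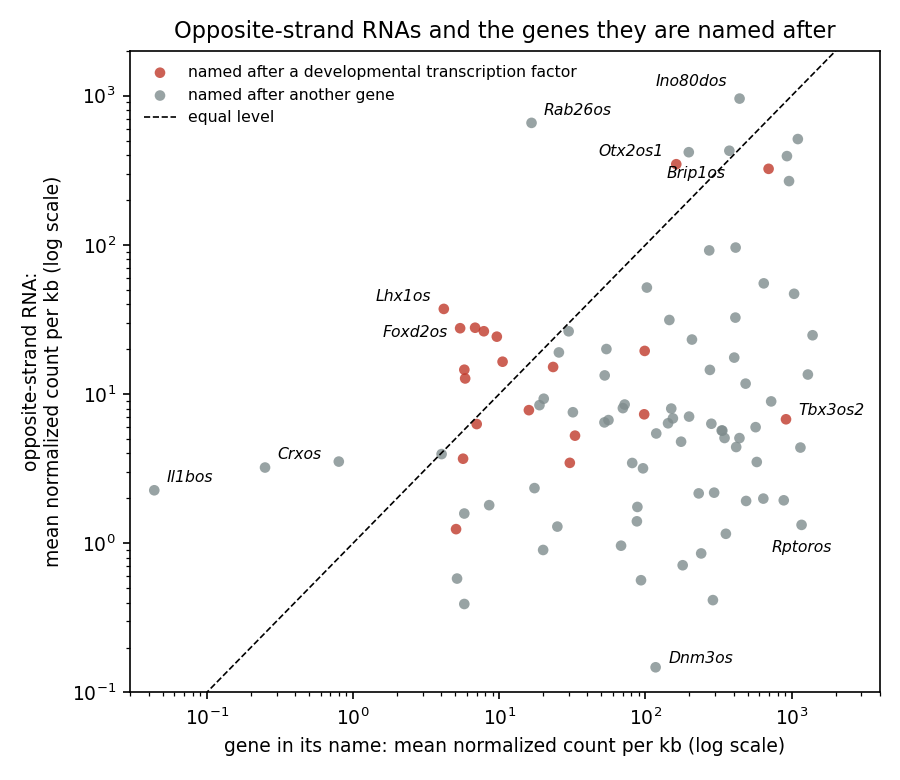
Each point is a pair, with the mean normalized count per kb of the gene in the name on the horizontal axis and that of the opposite-strand RNA on the vertical axis, both logarithmic. Of the 95 points, 16 lie above the dashed line of equal level, and 9 of these 16 are RNAs named after developmental transcription factors.

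Outside the developmental transcription factor list, the largest ratios besides that of Rab26os came with a scarce namesake. Il1bos had a mean of 3.16 (2.26 per kb), while the inflammatory cytokine gene Il1b had 0.06 (0.04 per kb), giving a log2 ratio of 5.69. With a pseudocount of 1 that ratio was 1.93, below the 5.26 of Rab26os. The NR_ entry of Crxos had 7.23 (3.22 per kb), while the photoreceptor factor gene Crx had 0.73 (0.25 per kb), giving a log2 ratio of 3.68. With the NM_ entries added, the Crxos mean was 86.7 and the log2 ratio 7.27. Il1b and Crx were both below a mean normalized count of 1, the limit that the RNAs had to pass. The rule therefore put both RNAs above their namesake in undivided mean.

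The lowest ratios came from scarce RNAs beside well-expressed genes. Rptoros had 1.33 per kb, while Rptor, which encodes the mTORC1 scaffold Raptor, had 1168 per kb (log2 ratio -9.78). Dnm3os, a precursor of microRNAs in mesenchymal tissues, had 0.15 per kb against 117 for the dynamin gene Dnm3 (log2 ratio -9.64). Mccc1os had 0.42 per kb against 289 for Mccc1, an enzyme of leucine breakdown (log2 ratio -9.44). Smc2os had 1.94 per kb against 882 for the condensin gene Smc2 (log2 ratio -8.83), and Far1os had 1.99 per kb against 640 for Far1, a fatty acyl reductase (log2 ratio -8.33). In all 5 pairs the RNA had a mean below 2, close to the limit for membership, and the namesake a mean above 500.

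RNAs named after developmental transcription factors made up 24 of the 136 symbols. A gene was counted here if its symbol belonged to one of a set of families such as Hox, Dlx, Pax, Gata, Fox, Sox and Tbx, which pattern the embryo and include many classical Polycomb targets. The set does not take in every transcription factor gene, and Crx, a homeobox gene related to Otx2, is outside it. Of the 24, 20 had a mean above 1, and Dlx6os2, Zeb2os, Msx1os and Sox5os3 did not. In 9 of the 20 pairs (45.0%) the RNA was above its namesake per kb, compared with 7 of 75 (9.33%) for other namesakes. The gap was narrower per kb of gene span, where 11 RNAs in all were above their namesake and 4 of them belonged to these 20 pairs. With Crx moved to the transcription factors the counts were 10 of 21 and 6 of 74. The median log2 ratio was -0.39 for the transcription factor pairs and -4.44 for the other pairs.

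The levels of both partners differed between these sets. The RNAs named after transcription factors had a median of 14.9 per kb, against 6.0 for the other RNAs. Their namesakes had a median of 10.1 per kb, against 179.6 for the other namesakes. Among pairs whose namesake mean was above 10 and up to 100, the RNA was the higher partner in 8 of 15 transcription factor pairs and in 1 of 11 other pairs, Rab26os. At 10 or less there was no transcription factor pair, and all 3 other pairs (St8sia3os, Crxos and Il1bos) had the RNA on top. The RNA had to pass a mean of 1 and the namesake did not. With Crx and Il1b below 1, the higher undivided mean of Crxos and Il1bos was fixed by the rule. Above 100 it was so in 1 of 5 transcription factor pairs, Otx2os1, and in 3 of 61 other pairs, namely Ino80dos, Brip1os and Oip5os1. Per kb of gene span the number of transcription factor pairs with the RNA on top was 4 of 20. These were Foxd2os, Dlx4os, Lhx1os and Hoxa11os, with log2 ratios of 0.34, 0.31, 0.04 and 0.04. All of them have a namesake mean above 10 and up to 100. In that range Rab26os (6.15) and Pcsk2os1 (2.43) were the other RNAs on top by span. The gap between the sets was therefore narrower there than per kb of transcript.

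Among the 9 pairs with the RNA on top, Lhx1os had the highest ratio per kb. Lhx1os (NR_038057, chr11:84525660-84535831, plus strand) had 37.2 per kb from a mean of 22.3. Lhx1, a head and kidney organizer gene, had 4.18 per kb from a mean of 16.1, for a log2 ratio of 3.15. Without division by length the log2 ratio was only 0.47, because the RNA is 599 nt long. Foxd2os (chr4:114909257-114921118, plus strand) had 27.6 per kb against 5.40 for the forkhead gene Foxd2, a log2 ratio of 2.35. Dlx4os (chr11:95145053-95159047, plus strand) had 27.8 per kb against 6.84 for the distal-less homeobox gene Dlx4, a log2 ratio of 2.03. These 3 RNAs were also above their namesakes on both other scales, but only slightly per kb of gene span. There the log2 ratios were 0.04 for Lhx1os, 0.34 for Foxd2os and 0.31 for Dlx4os.

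Hnf4aos had 26.4 per kb against 7.85 for the liver and endoderm receptor gene Hnf4a (log2 ratio 1.75). Its undivided mean was 22.1, below the 34.2 of Hnf4a, and its log2 ratio per kb of gene span was -0.16. Nkx2-2os had 14.6 per kb against 5.77 for the neural tube gene Nkx2-2, and Foxl2os had 24.2 per kb against 9.63 for the ovary gene Foxl2, each with a log2 ratio of 1.33, which turned to -0.59 and -0.03 per kb of gene span. Hand2os1, which lies upstream of the heart and limb gene Hand2, had 12.7 per kb against 5.85 (log2 ratio 1.12). However, its undivided mean of 6.58 was below the 13.7 of Hand2, and its log2 ratio per kb of gene span was -3.30. Hoxa11os had 16.5 per kb against 10.5 for the limb and uterus gene Hoxa11 (log2 ratio 0.64), and 568 nt of their exons overlap. Most of these namesakes lay between 4 and 11 per kb, far below the median of all genes.

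The other 11 pairs had the RNA at or below its namesake. The nearest to equal were Emx2os with 6.29 per kb against 7.01 for the cortex and kidney gene Emx2 (log2 ratio -0.16), Evx1os with 3.69 against 5.66 for the even-skipped homeobox gene Evx1, and Six3os1 with 15.2 against 23.4 for the forebrain and eye gene Six3, both at -0.62. Dlx6os1 had 7.80 per kb against 15.9 for Dlx6 (log2 ratio -1.03), yet a higher undivided mean, 35.9 against 17.1, because the RNA is 4608 nt long. Gata5os (1.24 per kb), Wt1os (19.5) and Hoxd3os1 (5.26) had log2 ratios of -2.03, -2.34 and -2.65 to the heart and endoderm gene Gata5 (5.07), the kidney and gonad gene Wt1 (98.8) and the homeobox gene Hoxd3 (33.0). Pax6os1 (3.46 per kb) and Vax2os (7.31) stood lower against the eye genes Pax6 (30.4) and Vax2 (98.0), at -3.14 and -3.74. Tbx3os2 had the lowest ratio of the 20, with 6.77 per kb beside 914 for the T-box gene Tbx3 (log2 ratio -7.08).

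**Figure D2:**
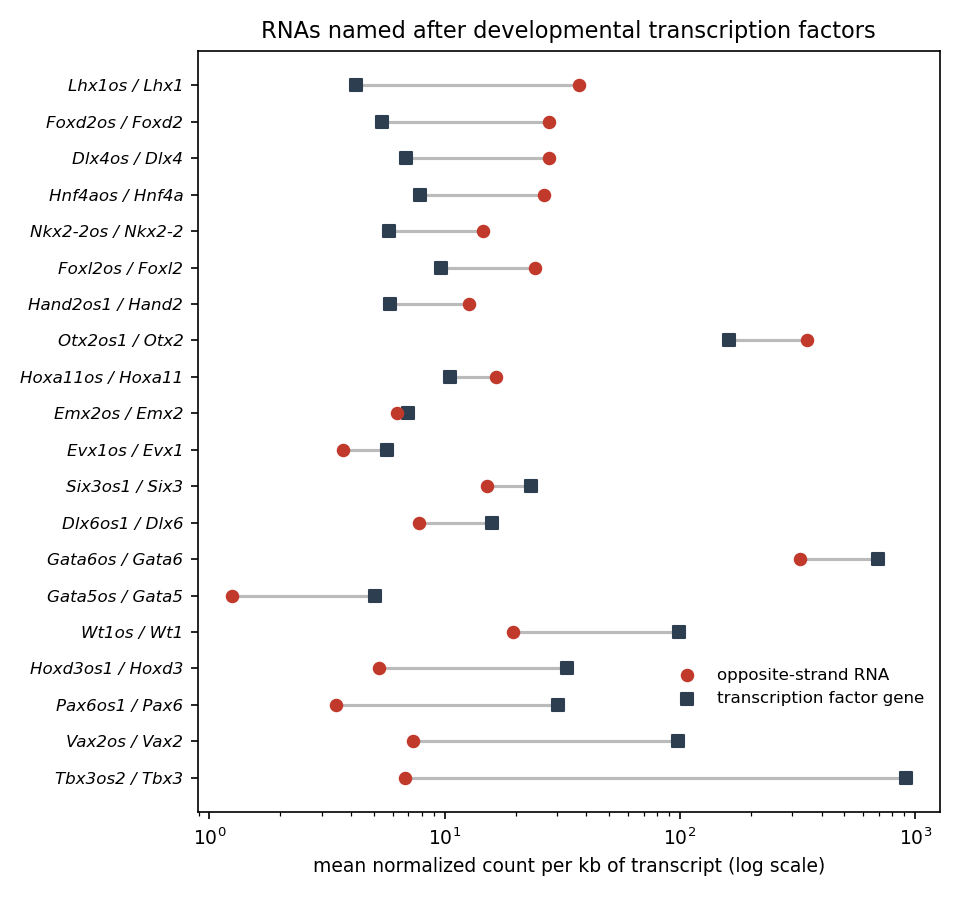
Each row is an RNA named after a developmental transcription factor (circle) and that gene (square), on a logarithmic axis of mean normalized count per kb of transcript, ordered by their ratio. The circle lies to the right of the square in the top 9 of 20 rows, and in most of these the gene is below 11 per kb.

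Pairs also differed by their position relative to the namesake. In 28 pairs the transcripts diverge without overlap, in 33 the RNA overlaps the start of its namesake, in 28 it overlaps only the body or the end, and in 6 it lies downstream without overlap. The RNA was above its namesake per kb in 8 of 28, 6 of 33, 0 of 28 and 2 of 6 of these pairs. Median log2 ratios were -3.01, -2.65, -4.37 and -1.11 in the same order. The 28 pairs with overlap at the body or end include no developmental transcription factor, while 8 divergent pairs, 11 pairs overlapping the start and 1 downstream pair do. With other namesakes alone, the RNA was on top in 0 of 28 pairs overlapping the body or end and in 2 of 5 downstream pairs. For transcription factor pairs the body or end position has no value, and an effect of position was not tested. Among divergent pairs the RNA was above its namesake in 5 of 8 transcription factor pairs and 3 of 20 others, and among pairs overlapping the start in 4 of 11 and 2 of 22.

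**Figure D3:**
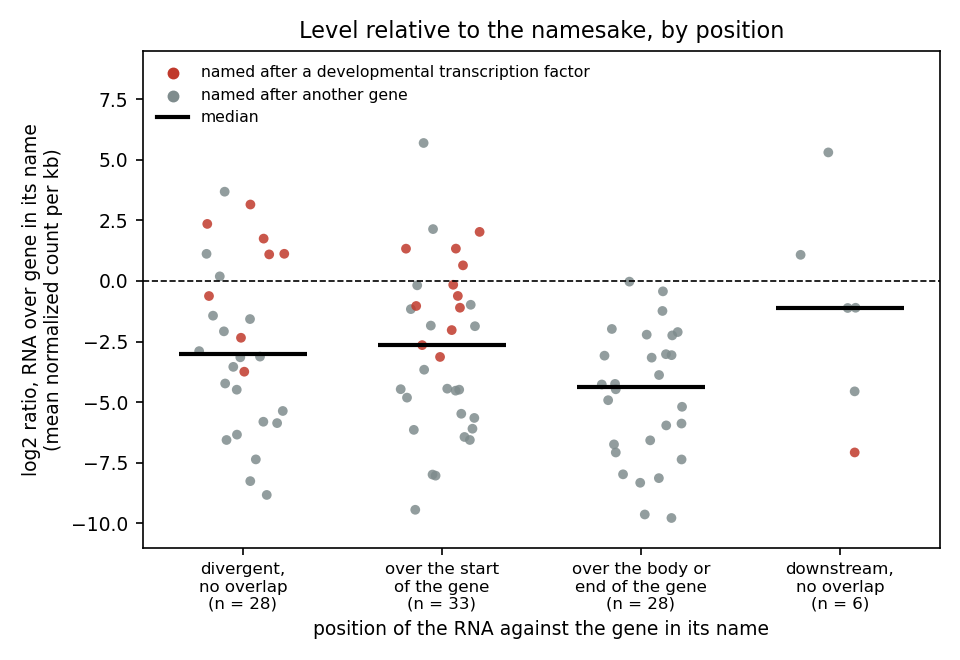
Points are pairs grouped by position, with the log2 ratio of RNA over namesake per kb on the vertical axis, black bars at the medians, and zero (equal level) dashed. All 28 points of the group overlapping the body or end lie below the zero line, the highest at -0.03.

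Overlap bears on how far such ratios can be trusted. The library kit preserves strand, but whether reads were assigned by strand is not given in the sources used here, and without that, reads from overlapping partners cannot be told apart. Annotated exons overlap in 46 pairs, of which 5 had the RNA on top (10.9%), and do not overlap in 49, of which 11 did (22.4%). Among the transcription factor pairs without exon overlap it was 5 of 12, and among the other pairs without exon overlap 6 of 37. Whole transcripts with their introns overlap in 61 pairs, of which 6 had the RNA on top (9.84%). They do not overlap in 34, of which 10 did (29.4%). The part of overlapping reads in these counts was not tested.

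Start sites lay within 1 kb of each other, head to head, in 37 of the 95 pairs, and the median distance between starts was 2321 nt. For RNAs named after transcription factors it was 1272.5 nt, against 5340 nt for the others. Head-to-head starts were found in 9 of 20 transcription factor pairs and in 28 of 75 others. The RNA was above its namesake per kb in 7 of the 37 head-to-head pairs (18.9%) and in 9 of the 58 other pairs (15.5%).

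The regions around the start followed the distance to the namesake. A region was classed as CpG-rich when its observed number of CpGs was above 0.6 of that expected from its base composition and its GC content was above 50%. A start region was found for 83 members, and 36 of these (43.4%) were CpG-rich, compared with 54 of 79 namesakes (68.4%) and 33.3% of the 32851 regions in the whole table. Of members with a head-to-head start, 22 of 33 (66.7%) were CpG-rich, with a median of 26 CpGs. In some of these pairs the starts lie close enough for the regions of RNA and namesake to share DNA. Their CpG contents are then not independent. Of members starting farther away, 12 of 46 (26.1%) were, with a median of 5.5 CpGs.

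**Figure D4:**
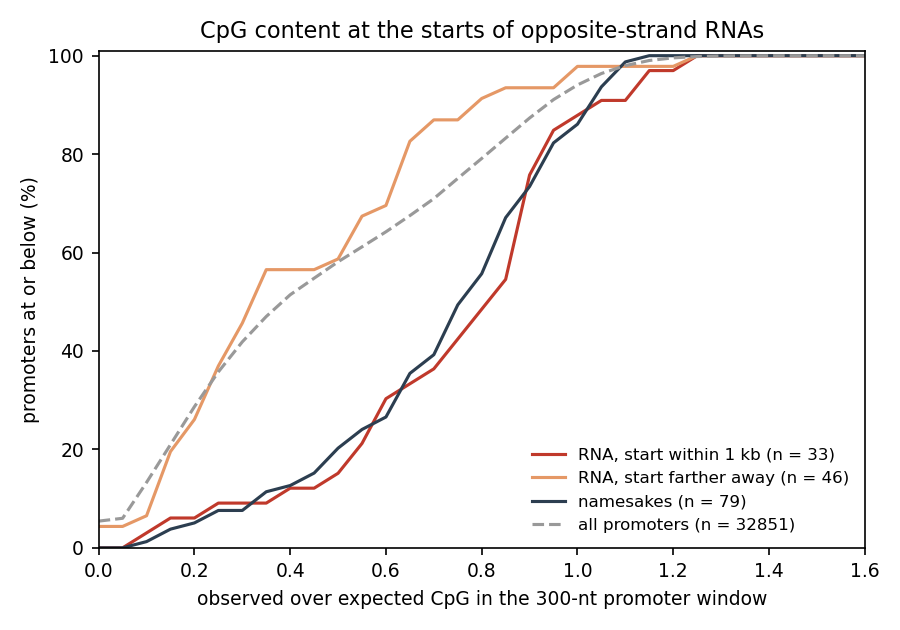
Cumulative share of 300-nt start regions, in percent, at or below each observed-over-expected CpG value, for opposite-strand RNAs starting within 1 kb of their namesake (33), those starting farther away (46), namesakes (79) and the whole table (32851). The curve of the RNAs within 1 kb runs close to that of the namesakes, and their medians of 0.82 and 0.76 are well above the 0.32 of RNAs starting farther away and the 0.38 of the table. Some partners within 1 kb have windows that share DNA, so part of the likeness to the namesakes follows from the grouping.

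The 36 members with a CpG-rich start region had a median mean of 17.0 (8.93 per kb), ranging from 1.21 to 1912. That highest value is from Micos10, which matched by spelling alone, and the next was Ino80dos at 1506. The 47 without had a median mean of 4.69 (4.66 per kb), ranging from 1.05 to 577. The highest of these, Oip5os1, had an observed-over-expected value of 0.80 and a GC content of 50%, at the limit of the definition, and the next was Rab26os at 196. Of the regions printed above, those of Ino80dos, Lhx1os and Hoxa11os met the definition, with observed-over-expected values of 0.82, 0.93 and 1.11, while those of Evx1os (0.25) and Hnf4aos (0.20) did not. Hnf4aos nevertheless had more per kb than Hoxa11os.

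Chromosomes 2 and 11 held larger shares of the members than of all entries, a difference that was not tested. Shares of the other chromosomes are not given here. Chromosome 2 carried 20 of the 100, against 8.63% of all entries with a RefSeq gene, and chromosome 11 carried 13, against 7.87%. Those on chromosome 2 include Oip5os1, Nkx2-2os, Wt1os, Hnf4aos, Pax6os1, Hoxd3os1, Gata5os and Il1bos.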

How the data were processed

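Nuclear RNA was rRNA-depleted and made into strand-specific libraries. Before deposition the authors filtered out rRNA reads (Bowtie 2), mapped the remainder to mm10 (STAR), discarded duplicates (SAMtools) and applied DESeq2 to a nonredundant mm10 gene set. Tool versions are not given in the sources used here. The deposited signal, used as the sole measurement, is the authors' mean of DESeq2-normalized counts per gene over their libraries, identical in the 3 tables. The 6 other numeric columns per table hold the authors' own fold changes, errors, test statistics and p-values for each null line and were not used. For this reason no comparison between the 4 groups of 4 libraries was made.

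Symbols came from RefSeq for 20446 entries and, with GENCODE vM21, for 20560 of 20633. Lengths were those of the longest GENCODE transcript paired with the RefSeq ID (93 members) or symbol (5), and 2 members had none. Positions are GRCm38, the same build as mm10. Start regions came from RefSeq, and 72 of 81 that could be compared lay within 100 nt of the GENCODE start. The highest NR_ entry per opposite-strand symbol and the highest entry per namesake were used. Log2 ratios had a pseudocount of 0. Named RNAs were the 10 highest per kb, the 5 highest and 5 lowest ratios, all those named after developmental transcription factors, and those next to the limit of 1, and other RNAs were named where a count or contrast called for it, after their values were seen. Members and lists were chosen with earlier results of these data known. Alternatives were other minimum means, length scales, a pseudocount of 1, summed entries, start distances of 5 kb and stricter CpG limits. The functions were tested on simulated data. Software was matplotlib 3.10.9, pandas 2.3.3, numpy 2.4.6, Python 3.11.15 and scipy 1.17.1.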

Additional observations from a re-analysis of the deposited data

How the results depend on the processing

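The number of RNAs was 136 with no minimum mean, 50 with a mean above 10 and 12 with a mean above 100. The median log2 ratio to the namesake was negative throughout, at -2.74 per kb of gene span, -4.38 without division by length, -2.98 with a pseudocount of 1 and -1.50 where both means were above 10. The number of RNAs above their namesake was 11 per kb of gene span, 12 without division by length, 15 with summed entries and 12 where both means were above 10, against 16. The median mean was 10.3 with summed entries and 33.3 above 10. The rank correlation was 0.10 without division by length and 0.26 with both means above 10. Head-to-head starts numbered 53 within 5 kb. In alternatives added after seeing the data, 21 start regions were CpG-rich under the stricter limits of 0.75 and 55%, and the RNAs above a developmental transcription factor numbered 4 per kb of gene span, 5 without pairs whose exons overlap, 8 without division by length, 8 with both means above 10 and 10 with Crx on the list.

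Leaving out single libraries was not possible because the values used are means over all libraries. No paired analysis was possible because the column used carries no replicate. Sequencing depth is unknown, so the precision of low means cannot be given, and ratios that rest on a mean near 1 are the least certain. The features over which nuclear reads were counted are not given in the sources used here, and the choice of length changed the higher partner in 13 of 95 pairs.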
